A study of Mus musculus with 26 samples.

Results

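The glucocorticoid receptor gene Nr3c1 and 9 genes known as targets of the receptor (Tsc22d3, Ddit4, Fkbp5, Zbtb16, Sgk1, Klf9, Pik3r1, Mt1 and Mt2) were followed in microglia sorted from mouse brain after repeated social defeat stress. A probe was taken for one of these genes where its accession maps to the gene's symbol, which gave 12 probes for the 10 genes among 55681 probes on the array. By this rule Nr3c1 and Mt1 have 2 probes each and the other genes 1, and further probes of these genes may lie among the 27655 that no RefSeq accession names. For 9 of the 10 genes a probe was bright enough to be tested among 24738 genes, and the Klf9 probe was not. All animals carried CX3CR1EGFP/+ on a C57BL/6 background, so that microglia and other cells that express Cx3cr1 are green, and EGFP-positive cells were sorted from a 1.5 mm punch of the nucleus accumbens (NAc) or the medial prefrontal cortex (mPFC). R-SDS is repeated social defeat stress, in which a mouse is exposed again and again to an aggressive one, and naive mice were moved between cages instead. Tissue was taken 1.5 h after the last session, cells of 3 to 6 mice were pooled for a sample, and 500 pg of RNA was amplified, labelled with Cy3 and hybridised to single-colour Agilent arrays.

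The 26 samples, 1 array each, form 8 groups. In the NAc there were 4 TLR-DKO; CX3CR1EGFP/+ samples after R-SDS and 3 from naive TLR-DKO; CX3CR1EGFP/+ mice, then 3 wild-type (WT) samples after R-SDS, which carry CX3CR1EGFP/+ alone, and 3 from naive WT mice. In the mPFC there were 3 TLR-DKO samples after R-SDS and 4 from naive TLR-DKO mice, and 3 WT samples after R-SDS and 3 from naive WT mice. The labels do not spell out TLR-DKO, which is known from the published study as a line that lacks Tlr2 and Tlr4. They call the stressed TLR-DKO mice resilient and the stressed WT mice susceptible, so genotype and that label cannot be told apart. They give no ages, and they state that the work was done as 2 separate experiments on different mice without tying a sample to either.

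The glucocorticoid receptor is a nuclear receptor that waits in the cytoplasm in a complex with Hsp90 and immunophilin co-chaperones. Corticosterone, which the mouse adrenal gland secretes during stress, releases it to the nucleus, where it binds glucocorticoid response elements and switches on genes such as Tsc22d3 and Fkbp5. Microglia express the receptor, and glucocorticoids are known to restrain their inflammatory genes.

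Levels below are log2 of the array's processed signal minus log2 of its 75th percentile, so a level of 0 is the 75th percentile and an increase of 1 a doubling of signal. Differences are R-SDS minus naive unless another direction is named, ± the standard error from limma, and p-values were adjusted by Benjamini-Hochberg over all 24738 genes with a threshold of 0.05. The level of one probe cannot be set against that of another. The arrays' 75th percentile ran from 80.7 to 341 units and 50% to 71% of spots were well above background. WT mPFC R-SDS replicate 3 was the dimmest array, and its mean Pearson r with the other arrays was 0.79, the lowest, followed by 0.83 for TLR-DKO mPFC naive replicate 1. Differences, list medians and marker sums of the mPFC that these arrays move by over 1.5 times are given with and without them. Differences of the dimmer probes of Nr3c1 and Mt1 are given only with them. Tlr2 was well above background on 0 of 14 TLR-DKO arrays and on 12 of 12 WT arrays, with levels of -4.60 to -3.46 in TLR-DKO and 0.61 to 2.68 in WT. Tlr4 stood at 1.43 to 3.86 in TLR-DKO and at 1.60 to 3.14 in WT, ranges that overlap, and where its probe lies relative to the deletion is not given in the sources used here, so it checks nothing. The 10 microglia markers were well above background in every group, and their summed linear level, in units of the 75th percentile, lay between 1030 and 3150, or at most 1730 without WT mPFC R-SDS replicate 3. Because each sample is pooled bulk RNA, a smaller share of cells with a transcript and less of it per cell cannot be told apart.

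Averaged over both genotypes and both regions, 6 of the 9 genes stood above naive after R-SDS with an unadjusted p under 0.05, and 0 passed after adjustment. The largest of these averages were 1.83 ± 0.30 for Ddit4 and 1.21 ± 0.22 for Tsc22d3, a 3.56-fold and a 2.31-fold difference, followed by 0.90 ± 0.29 for Pik3r1, 0.89 ± 0.37 for Zbtb16, 0.59 ± 0.24 for Fkbp5 and 0.54 ± 0.25 for Sgk1. Among all genes 3.25% were higher at an unadjusted p under 0.05, and 0.0% passed after adjustment. By p Ddit4 ranked 2 and Tsc22d3 ranked 6 among all genes. The limma adjusted p of Ddit4 was 0.0567, the smallest of any gene and shared with the gene ranked 1. That of Tsc22d3 was 0.106, while those of the other 7 ran from 0.774 to 0.998. Mt1 stood at 0.39 ± 0.27, Mt2 at -0.04 ± 0.85 (0.0029 with quantile normalization) and Nr3c1 itself at -0.31 ± 0.28. Only 0.238% of the genes tested had a higher average than Ddit4 and 1.25% a higher one than Tsc22d3, whereas 84.3% had a higher one than Nr3c1. The median of the 9 genes was 0.59 and that of all genes 0.04. This average over the strata was chosen with earlier results of these data known. Ddit4 passed the threshold under 5 of 16 other settings of the test (adjusted p between 0.0144 and 0.203 over the 16) and Tsc22d3 under 1 of them (0.0236 to 0.282), as given in the section on processing.

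**Figure D1:**
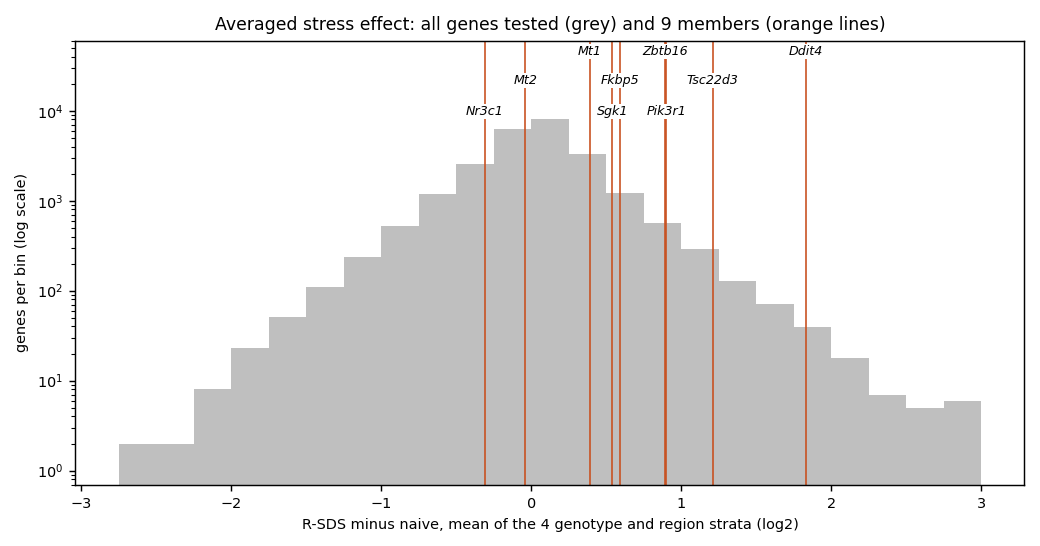
Histogram of the averaged stress effect (R-SDS minus naive, mean of the 4 genotype and region strata, log2, x axis) of the 24738 genes tested, with the number of genes per bin on a log scale (y axis) and an orange line for each of the 9 genes. Ddit4 at 1.83 and Tsc22d3 at 1.21 lie in the right tail, and Mt2 at -0.04 and Nr3c1 at -0.31 lie left of 0.

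Promoter windows of RefSeq (build GRCm38.p6) were examined for the response elements that give the receptor and, for the metallothioneins, the metal sensor Mtf1 access to their targets. Used were 16 windows of 8 of the 10 genes, all but Nr3c1 and Zbtb16. Each window is the 250 bases before a transcript's start site, and position -1 is the base just before it. Shown are the windows of Sgk1 and Tsc22d3 with a glucocorticoid element or one hexamer of it, that of Ddit4, which had the largest averaged difference, and those of the adjacent genes Mt2 and Mt1 with metal response elements. Capitals mark the full glucocorticoid element in Sgk1, the hexamer in Tsc22d3 and the metal response elements in Mt2 and Mt1. The Sgk1 window is chr10:21993640-21993889 (plus strand), Tsc22d3 chrX:140600523-140600772 (minus strand), Ddit4 chr10:59951771-59952020 (minus strand), Mt2 chr8:94172368-94172617 (plus strand) and Mt1 chr8:94178839-94179088 (plus strand). Each is printed 5′ to 3′ in the direction of its gene.
Sgk1: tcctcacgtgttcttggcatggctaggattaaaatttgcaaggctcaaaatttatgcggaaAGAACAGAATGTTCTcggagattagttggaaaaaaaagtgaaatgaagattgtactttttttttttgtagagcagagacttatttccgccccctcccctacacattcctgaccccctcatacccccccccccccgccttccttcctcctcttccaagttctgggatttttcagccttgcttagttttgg
Tsc22d3: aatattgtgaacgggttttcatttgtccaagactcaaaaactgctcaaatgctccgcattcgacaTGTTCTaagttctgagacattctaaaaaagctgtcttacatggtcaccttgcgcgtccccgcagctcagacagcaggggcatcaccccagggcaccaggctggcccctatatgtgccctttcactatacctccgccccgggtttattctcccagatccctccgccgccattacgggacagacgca
Ddit4: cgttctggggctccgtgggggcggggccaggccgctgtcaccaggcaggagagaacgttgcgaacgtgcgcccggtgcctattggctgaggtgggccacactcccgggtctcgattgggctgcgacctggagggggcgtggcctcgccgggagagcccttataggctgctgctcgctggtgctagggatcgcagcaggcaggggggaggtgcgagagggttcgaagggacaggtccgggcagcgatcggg
Mt2: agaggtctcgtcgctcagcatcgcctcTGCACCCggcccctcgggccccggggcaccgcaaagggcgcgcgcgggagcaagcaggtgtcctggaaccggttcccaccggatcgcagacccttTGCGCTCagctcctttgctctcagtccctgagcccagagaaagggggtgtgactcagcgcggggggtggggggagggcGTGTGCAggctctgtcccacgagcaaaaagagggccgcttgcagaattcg
Mt1: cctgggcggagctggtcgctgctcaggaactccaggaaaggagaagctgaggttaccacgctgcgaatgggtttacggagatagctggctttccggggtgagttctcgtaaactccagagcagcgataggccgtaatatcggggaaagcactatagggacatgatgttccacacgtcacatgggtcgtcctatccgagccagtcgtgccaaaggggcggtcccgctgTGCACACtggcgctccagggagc

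The full element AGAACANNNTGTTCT, searched on both strands, was found in 1 of the 6 Sgk1 windows as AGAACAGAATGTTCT at -189 to -175. It was in 3 of 32851 promoter windows of the genome, or 0.00913%. The looser pattern GNACANNNTGTNC, which any full element also matches, was in 0.387% of windows and among these genes in that Sgk1 window and in the Mt1 window, where it is left in lower case. The hexamer AGAACA is contained in the full element and was in 16.1% of windows. It lies in 1 of the 3 Tsc22d3 windows at -185 to -180, read there on the opposite strand as TGTTCT, and in 3 Sgk1 windows. Metal response elements (TGCGCNC or TGCACNC, both strands) were in 21.4% of windows, and 1.26% of windows held at least 3. Mt2 has 3, at -223 to -217, at -128 to -122 and at -50 to -44, Mt1 has 1 at -23 to -17, and Ddit4 and 1 of the 2 Pik3r1 windows have 1 each, in lower case here for Ddit4. The Fkbp5 and Klf9 windows hold none of these patterns. A match is a description of the letters, and elements outside these short windows were not searched.

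Nr3c1 encodes the receptor. Its brighter probe stood in the NAc at 2.55, 1.91, 2.20 and 1.97 in stressed TLR-DKO microglia, against 2.28, 1.79 and 3.07 in naive ones. In WT NAc it stood at 1.76, 0.53 and 2.59 after R-SDS and at 2.07, 2.41 and 1.81 in naive mice. In the NAc the stressed and naive arrays overlap in both genotypes. In the mPFC it stood at 1.98, 2.27 and 1.18 in stressed TLR-DKO and at 1.53, 2.31, 1.42 and 0.47 in naive TLR-DKO microglia. In WT mPFC it stood at 1.16, 1.63 and -0.20 after R-SDS and at 2.74, 1.00 and 1.63 in naive mice. These overlap too, and the lowest value of all 26 is that of WT mPFC R-SDS replicate 3. The stress difference was -0.22 ± 0.54 in TLR-DKO NAc, -0.47 ± 0.58 in WT NAc, 0.38 ± 0.54 in TLR-DKO mPFC and -0.92 ± 0.58 in WT mPFC, or -0.39 in WT mPFC without the arrays that stand apart (limma adjusted p from 0.84 to 1 in these). The dimmer Nr3c1 probe was well above background on all 26 arrays, yet the 2 probes had a Pearson r of -0.04 over them. Its stress difference was -0.53 ± 0.78, -1.71 ± 0.84, 0.43 ± 0.78 and -0.10 ± 0.84 in the same order of groups. The probes had the same sign in each of these groups and differed most in WT NAc. There the dimmer probe stood at 0.50, -0.08 and -2.46 after R-SDS and at 1.30, 0.80 and 0.99 in naive mice. The -2.46 is that of WT NAc R-SDS replicate 3, and the limma test of this probe gave an unadjusted p of 0.054.

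**Figure D2:**
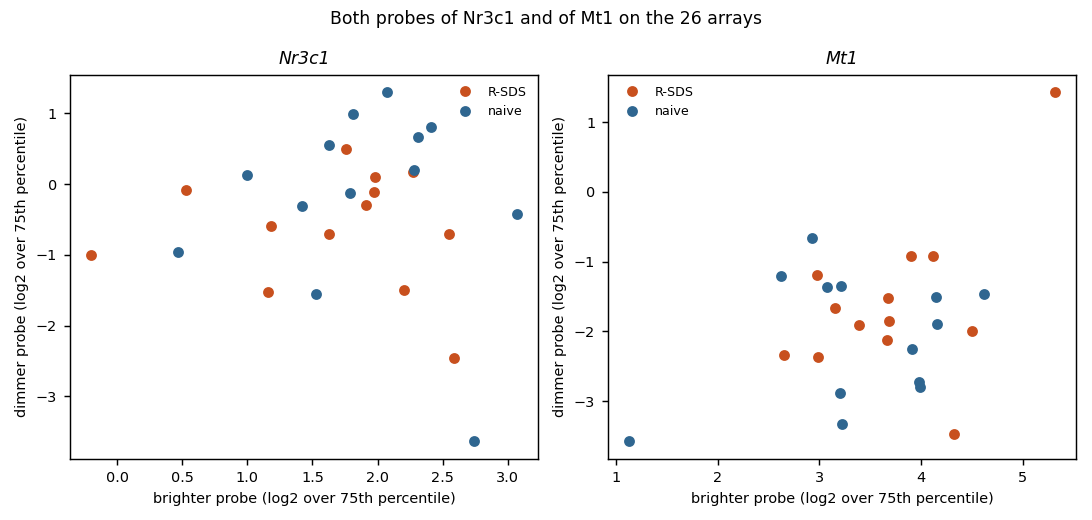
Level of the dimmer probe (y axis) against the brighter probe (x axis) of Nr3c1, left, and of Mt1, right, both as log2 signal over the array's 75th percentile, with 1 point per array (orange R-SDS, blue naive). Over the 26 arrays the Pearson r was -0.04 for Nr3c1 and 0.40 for Mt1, where the array at 5.32 and 1.43 is WT mPFC R-SDS replicate 3.

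Fkbp5 encodes a co-chaperone of the receptor complex that lowers its affinity for hormone and is itself induced by it. In the NAc, Fkbp5 averaged 3.15 ± 0.48 in stressed and 2.87 ± 0.23 in naive TLR-DKO microglia (SD, n = 4 and n = 3), and 3.05 ± 0.66 in stressed and 2.23 ± 0.26 in naive WT microglia (SD, n = 3 each). All 3 stressed WT NAc arrays (2.48, 2.89 and 3.77) lie above all 3 naive ones (1.94, 2.42 and 2.34). In TLR-DKO mPFC the levels were 2.74, 3.40 and 3.11 after R-SDS and 3.41, 2.79, 3.21 and 3.20 in naive mice, which overlap. In WT mPFC they were 3.04, 2.74 and 5.16 after R-SDS and 2.37, 1.71 and 2.80 in naive mice. The 5.16 belongs to WT mPFC R-SDS replicate 3, and the other stressed arrays overlap the naive ones. The WT mPFC difference of 1.35 ± 0.49 (limma adjusted p = 0.831) was 0.60 ± 0.41 without the arrays that stand apart (0.999).

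Tsc22d3 encodes GILZ, a leucine zipper protein that carries much of the anti-inflammatory action of glucocorticoids. Its level in the NAc was 5.72, 5.99, 6.09 and 4.73 in stressed TLR-DKO microglia, against 5.19, 4.89 and 4.90 in naive ones. In WT NAc it was 5.59, 6.00 and 5.66 after R-SDS, against 4.01, 4.29 and 3.65 in naive mice. The WT groups do not overlap, while in TLR-DKO 3 of 4 stressed arrays lie above all naive ones and replicate 4 lies below them. In TLR-DKO mPFC it was 6.22, 5.81 and 4.16 after R-SDS and 5.33, 4.42, 4.36 and 4.78 in naive mice. The WT mPFC level was 5.95, 5.70 and 6.30 after R-SDS and 4.29, 4.85 and 3.55 in naive mice. Here again the WT groups do not overlap, and 1 stressed TLR-DKO array, replicate 3, lies below all of its naive arrays. The difference was 0.64 in TLR-DKO NAc, 1.77 ± 0.46 in WT NAc (limma adjusted p = 1), 0.67 ± 0.43 in TLR-DKO mPFC (0.973) and 1.75 ± 0.46 in WT mPFC (0.728). In TLR-DKO mPFC it was 1.29 without R-SDS replicate 3 and 0.26 without R-SDS replicate 1. Ordered by group mean, the 4 stressed groups came first, WT mPFC at 5.98 ± 0.30, WT NAc at 5.75 ± 0.22, TLR-DKO NAc at 5.63 ± 0.62 and TLR-DKO mPFC at 5.39 ± 1.09. The naive groups followed, TLR-DKO NAc at 5.0 ± 0.17, TLR-DKO mPFC at 4.72 ± 0.45, WT mPFC at 4.23 ± 0.65 and WT NAc at 3.98 ± 0.32 (SD, n = 3 or 4). Neighbours in this order differed by less than the larger of their SDs.

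Ddit4 encodes REDD1, which restrains mTORC1 and is induced by glucocorticoids, energy shortage and low oxygen. Its level in the NAc was 7.17, 7.46, 7.52 and 5.71 in stressed TLR-DKO microglia, against 5.78, 5.55 and 6.07 in naive ones. In WT NAc it was 6.52, 6.44 and 6.60 after R-SDS, against 4.63, 3.51 and 4.09 in naive mice. The stressed WT arrays lie close together and above every naive one, and in TLR-DKO replicate 4 after R-SDS falls among the naive arrays. In TLR-DKO mPFC it was 7.24, 6.70 and 5.67 after R-SDS and 6.27, 4.70, 3.86 and 5.34 in naive mice. The WT mPFC level was 5.56, 6.64 and 8.06 after R-SDS and 4.93, 4.68 and 3.98 in naive mice. The WT mPFC groups do not overlap, and in TLR-DKO mPFC the lowest stressed array, replicate 3, is below the highest naive one, replicate 1. The difference was 1.17 ± 0.58 in TLR-DKO NAc, 2.44 ± 0.62 in WT NAc, 1.49 ± 0.58 in TLR-DKO mPFC and 2.23 ± 0.62 in WT mPFC, a 4.68-fold difference in the last (limma adjusted p from 0.781 to 1). Without the arrays that stand apart it was 1.90 ± 0.51 in TLR-DKO mPFC and 1.57 ± 0.57 in WT mPFC. By group mean the stressed groups ran from 6.96 ± 0.85 (TLR-DKO NAc) over 6.75 ± 1.25 (WT mPFC) and 6.54 ± 0.80 (TLR-DKO mPFC) to 6.52 ± 0.08 (WT NAc). The naive groups ran from 5.80 ± 0.26 (TLR-DKO NAc) over 5.04 ± 1.02 (TLR-DKO mPFC) and 4.53 ± 0.49 (WT mPFC) to 4.08 ± 0.56 (WT NAc; SD, n = 3 or 4). Neighbours in this order differed by less than the larger of their SDs except for stressed WT NAc and naive TLR-DKO NAc, between which the order steps from stressed to naive groups.

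Sgk1 encodes a kinase related to Akt that is a classical target of the receptor in many tissues. In the NAc, Sgk1 averaged 4.40 ± 0.50 in stressed and 4.26 ± 0.45 in naive TLR-DKO microglia, and 4.82 ± 0.50 in stressed and 4.08 ± 0.74 in naive WT microglia. In the mPFC it averaged 4.32 ± 0.77 in stressed and 3.98 ± 0.44 in naive TLR-DKO microglia, and 4.71 ± 0.53 in stressed and 3.79 ± 0.98 in naive WT microglia (SD, n = 3 or 4). The stressed and naive arrays overlap in each of the 4. Its values differ between days of scanning, and the averaged difference of 0.54 ± 0.25 (limma adjusted p = 0.912) was 0.31 ± 0.14 with slide as a block (0.682), 0.26 ± 0.21 on scan day 1 alone and 0.45 ± 0.23 on day 2. With slide as a block it was -0.0041 in TLR-DKO NAc, 0.45 in WT NAc, -0.12 in TLR-DKO mPFC and 0.92 in WT mPFC (limma adjusted p = 0.518 in the last).

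Pik3r1 encodes p85 alpha, the regulatory subunit of class I PI3 kinases. Its level in the NAc was 1.65, 0.65, 2.18 and 1.62 in stressed TLR-DKO microglia, against 1.26, 1.13 and 1.64 in naive ones. In WT NAc it was 1.24, 1.19 and 2.12 after R-SDS, against -0.30, 0.50 and 0.96 in naive mice. In the NAc the WT groups do not overlap and the TLR-DKO groups do. In TLR-DKO mPFC it was 1.15, 1.03 and 2.01 after R-SDS and 0.05, 2.18, 1.28 and 1.94 in naive mice. In WT mPFC it was 1.05, 1.73 and 2.59 after R-SDS, against -0.13, -1.80 and 0.48 in naive mice. The WT mPFC groups do not overlap, while stressed TLR-DKO microglia averaged 1.40 ± 0.54 and naive ones 1.36 ± 0.95 (SD, n = 3 and n = 4). The difference was 0.18 in TLR-DKO NAc, 1.13 ± 0.60 in WT NAc, 0.03 ± 0.56 in TLR-DKO mPFC (-0.40 without the arrays that stand apart) and 2.27 ± 0.60 in WT mPFC, a 4.83-fold difference in the last (limma adjusted p = 0.728). In WT mPFC it was 1.87 ± 0.59 without the arrays that stand apart (0.999), 2.27 ± 0.40 with slide as a block (0.0882) and 1.97 with slide as a block and array weights, where it passed (0.0436). That last setting was chosen after seeing the data.

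Zbtb16 encodes PLZF, a zinc finger repressor that glucocorticoids induce in several cell types. Its probe was dim, near or below the array's 75th percentile, and well above background on 25 of 26 arrays. In the NAc it stood at 0.69, -1.22, -1.46 and -3.36 in stressed and at -2.93, -2.88 and -2.69 in naive TLR-DKO microglia. In WT NAc it stood at -0.46, -0.99 and 0.23 after R-SDS and at -0.59, -2.74 and -3.04 in naive mice. Stressed replicate 4 in TLR-DKO lies below its naive arrays, naive replicate 1 in WT lies among the stressed ones, and the other stressed NAc arrays lie above the other naive ones. In TLR-DKO mPFC it stood at -2.97, -3.30 and -2.72 after R-SDS, all below the naive -1.95, -1.20, -2.16 and -2.32. In WT mPFC it stood at -1.97, 0.60 and -1.57 after R-SDS, all above the naive -2.46, -2.40 and -2.36. The difference was 1.49 in TLR-DKO NAc, 1.72 ± 0.77 in WT NAc, -1.09 ± 0.72 in TLR-DKO mPFC and 1.43 ± 0.77 in WT mPFC (limma adjusted p from 0.831 to 1). In WT NAc it was -0.136 on scan day 1, which has 1 naive array, and 3.12 on day 2, which has 1 stressed array. Leaving out 1 array took it to 0.64 in WT mPFC (R-SDS replicate 2, the array at 0.60) and to 0.82 in TLR-DKO NAc (R-SDS replicate 1, the array at 0.69).

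Klf9 encodes a Krüppel-like factor that is an immediate target of the receptor in neurons. Its 1 named probe was well above background on 4 of 26 arrays, at -2.57 on TLR-DKO NAc naive replicate 2, -0.89 on WT NAc R-SDS replicate 1, -1.11 on TLR-DKO mPFC R-SDS replicate 1 and -0.29 on TLR-DKO mPFC naive replicate 3. These lie in 4 different groups, 2 of them stressed and 2 naive, and no comparison was made.

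Mt1 and Mt2 encode metallothioneins, small cysteine-rich proteins that bind zinc and copper, and both glucocorticoids and metals induce them. They are related genes that lie side by side, and whether a probe of one also catches transcripts of the other was not tested. The Mt1 and Mt2 probes tested had a Pearson r of 0.16 over the arrays. The brighter Mt1 probe averaged in the NAc 3.22 ± 0.63 in stressed and 3.78 ± 0.50 in naive TLR-DKO microglia, and 3.35 ± 0.35 in stressed and 2.32 ± 1.08 in naive WT microglia. In the mPFC it averaged 3.97 ± 0.33 in stressed and 3.73 ± 0.79 in naive TLR-DKO microglia, and 4.50 ± 0.82 in stressed and 3.66 ± 0.50 in naive WT microglia (SD, n = 3 or 4). Stressed and naive arrays overlap in all 4. Without WT mPFC R-SDS replicate 3 (5.32) the stressed WT mPFC mean was 4.09, and without both arrays that stand apart the difference was 0.42 there and -0.02 in TLR-DKO mPFC, beside 0.83 and 0.25 with them. The dimmer Mt1 probe was well above background on 23 arrays. Its stress difference was 1.12 ± 0.80 in TLR-DKO NAc and -0.46 ± 0.80 in TLR-DKO mPFC. The brighter probe gave -0.56 ± 0.51 and 0.25 ± 0.51 there, so the probes disagree in sign in each. The TLR-DKO mPFC values were smaller than 1 standard error. In WT NAc and WT mPFC the dimmer probe gave 0.11 ± 0.85 and 1.24 ± 0.85, and the brighter 1.03 and 0.83, of the same sign. The Mt2 probe ranged from -3.10 to 3.18 over the 13 stressed arrays and from -4.84 to 4.84 over the 13 naive ones, the widest spread of these genes. Its SD within a group was between 1.42 and 3.24, and its stress differences of 1.60, -0.70, -0.72 and -0.34 in TLR-DKO NAc, WT NAc, TLR-DKO mPFC and WT mPFC were each smaller than 1 standard error. Without the arrays that stand apart its values in TLR-DKO mPFC and WT mPFC were 0.22 and 0.45, of the opposite sign.

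**Figure D3:**
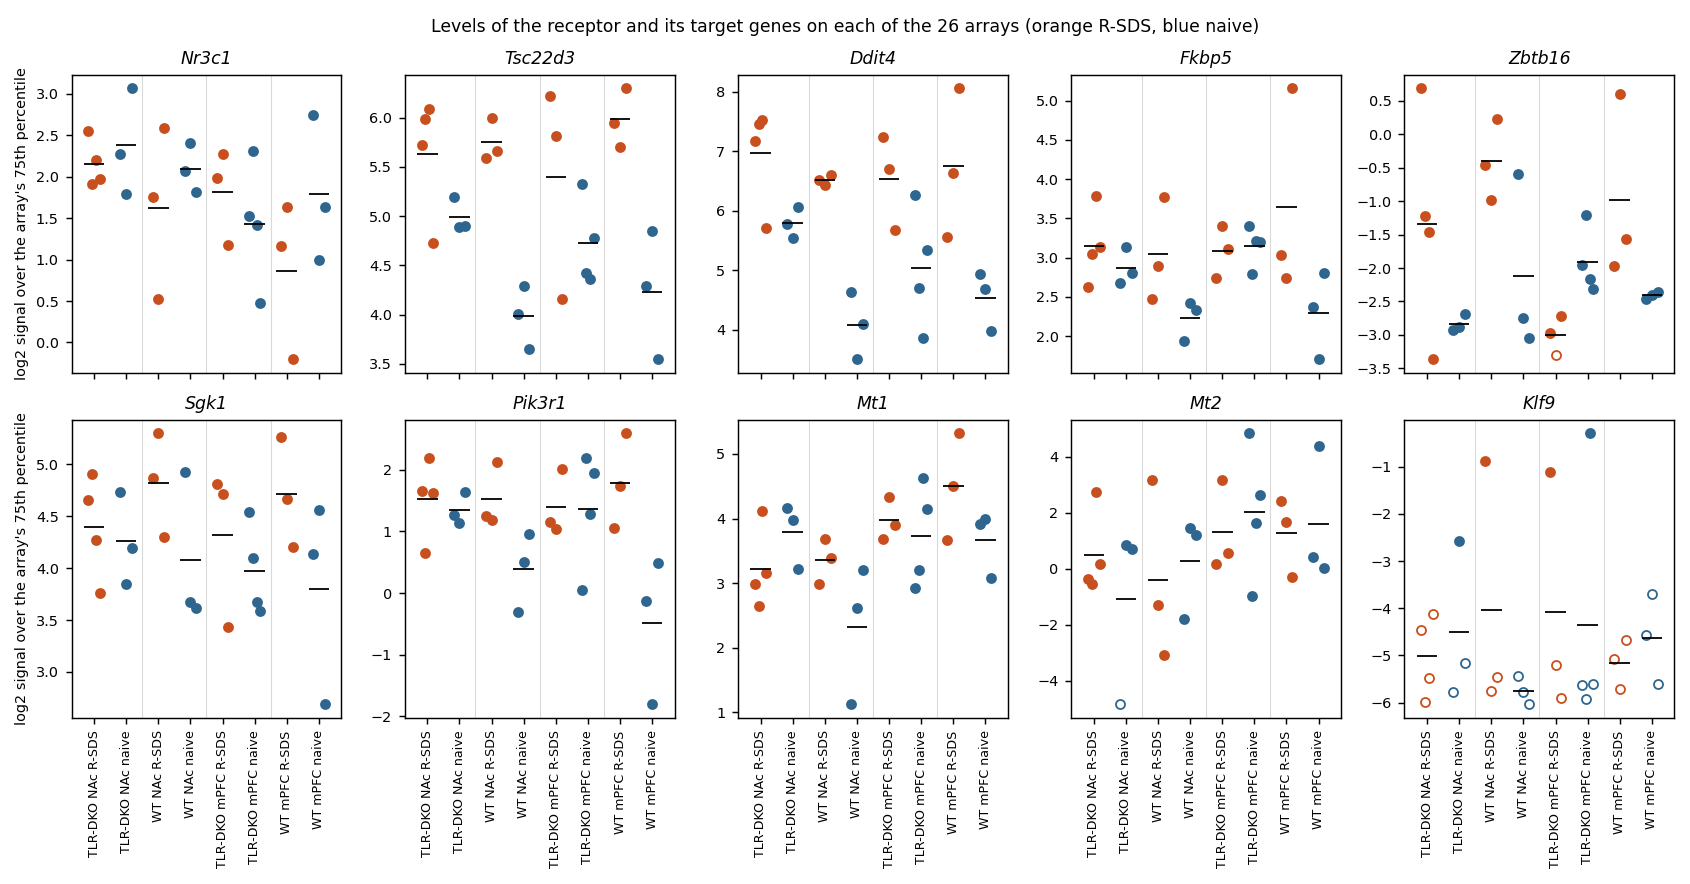
Level of each of the 10 genes (y axis, log2 signal over the array's 75th percentile, each panel with its own range) on every array, by group (x axis), with R-SDS in orange left of naive in blue, a black bar at the group mean and open circles where the probe was not well above background. In WT NAc and WT mPFC the stressed arrays of Tsc22d3, Ddit4 and Pik3r1 lie above the naive ones, and Klf9 is at background on all but 4 arrays.

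Taken stratum by stratum, 4 of the 9 genes had every stressed array above every naive array in WT NAc (Tsc22d3, Ddit4, Fkbp5 and Pik3r1), where 4.49% of all genes did. In WT mPFC it was 4 of 9 as well (Tsc22d3, Ddit4, Zbtb16 and Pik3r1), where 5.03% of all genes did. In TLR-DKO NAc it was 0 of 9 (2.11% of all genes) and in TLR-DKO mPFC 0 of 9 (2.14%), with Zbtb16 the 1 gene whose stressed arrays all lay below the naive ones there (4.09% of all genes). Tsc22d3, Ddit4 and Pik3r1 were apart in 2 strata each, and 0.986% of all genes were apart in at least 2. TLR-DKO groups of 3 and 4 arrays separate less easily than WT groups of 3 and 3, and the backgrounds differ accordingly. None of the 9 passed the adjusted threshold in a single stratum, where 0.00808% of genes passed in TLR-DKO NAc, 0.0% in WT NAc, 0.0% in TLR-DKO mPFC and 0.00808% in WT mPFC. Tsc22d3, Ddit4, Sgk1 and Pik3r1 had a difference above 0 in all 4 strata, as did 9.14% of all genes. Those of Pik3r1 in TLR-DKO mPFC (-0.09 with median centring, -0.40 without the arrays that stand apart) and in TLR-DKO NAc (-0.116 on scan day 1) turned negative under some other settings, as did those of Sgk1 (with slide as a block, -0.0041 in TLR-DKO NAc and -0.12 in TLR-DKO mPFC) and that of Tsc22d3 in TLR-DKO mPFC (-0.359 on scan day 2). The difference of Ddit4 was above 0 in all 4 strata under every setting run.

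**Figure D4:**
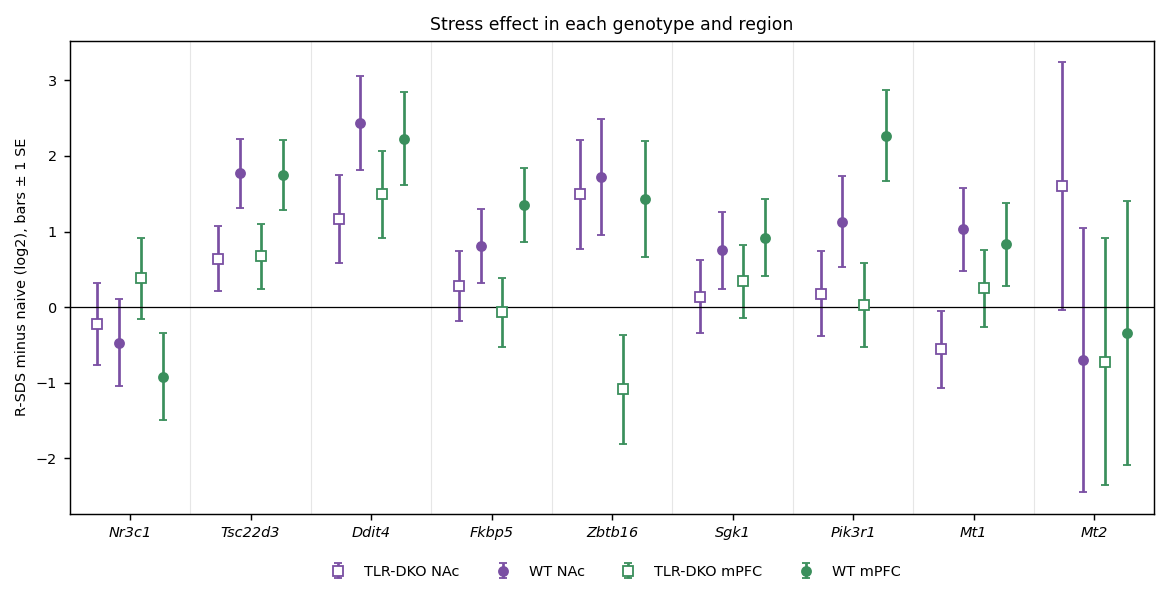
Stress effect (R-SDS minus naive, log2, y axis) of the 9 genes (x axis) in TLR-DKO NAc, WT NAc, TLR-DKO mPFC and WT mPFC (purple NAc, green mPFC, open squares TLR-DKO, filled circles WT), with bars of 1 standard error from limma. Ddit4 and Tsc22d3 lie above 0 in all 4, and Zbtb16 in the mPFC lies at -1.09 in TLR-DKO and at 1.43 in WT.

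Whether stress acted differently in the genotypes was tested as the difference of the stress effect, TLR-DKO minus WT. In the mPFC it was below 0 for 8 of the 9 genes (7 with quantile normalization, where Mt1 was at 0.03) and for 60.3% of all genes, with a median of -0.73 against -0.23 over all genes, and 0 of 9 passed (0.0% of all genes). An unadjusted p under 0.05 was reached by Pik3r1 at -2.24 ± 0.82, Zbtb16 at -2.51 ± 1.06 and Fkbp5 at -1.42 ± 0.67 (limma adjusted p = 0.812 for each), or 3 of 9 genes where 3.83% of all genes did so in this direction. Without the arrays that stand apart these were -2.27 for Pik3r1, -2.82 for Zbtb16 and -0.58 for Fkbp5, and that of Ddit4 was 0.331 without them and -0.73 with them. With quantile normalization the median of all genes was 0.025 for stress in WT mPFC and -0.042 for the difference between genotypes, beside 0.17 and -0.23 above, and the difference was -2.0 for Pik3r1, -2.66 for Zbtb16 and -0.84 for Fkbp5. In the NAc the difference was below 0 for 7 of 9 and for 54.6% of all genes, with a median of -0.60 against -0.07 over all genes, and 0 of 9 passed (0.0% of all genes). Mt1 had the smallest p there, at -1.59 ± 0.75 (limma adjusted p = 1), and its value was -0.295 for the mean of its probes. It was -3.55 on scan day 1, with 1 naive array of each genotype, and -0.441 on day 2, with 1 stressed WT array. The difference between genotypes in the response to stress was therefore not detectable for these genes at this number of arrays. The stress effect also did not pass between regions, NAc minus mPFC, in any of the 9 (0.00404% of all genes passed), Zbtb16 having the smallest p at 1.44 ± 0.75 (limma adjusted p = 1).

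Genotype itself, TLR-DKO minus WT averaged over region and condition, passed in 0 of 9 genes, where 0.0202% of all genes passed. Zbtb16 at -0.79 ± 0.37, Pik3r1 at 0.60 ± 0.29 and Ddit4 at 0.61 ± 0.30 had the smallest p (limma adjusted p from 0.604 to 0.619). Region, NAc minus mPFC averaged over genotype and condition, passed in 0 of 9, where 0.905% of all genes passed. Mt1 was at -0.80 ± 0.27 (limma adjusted p = 0.163), Nr3c1 at 0.59 ± 0.28 (0.316) and Mt2 at -1.73 ± 0.85 (0.333). Each slide held a single region, and with slide as a random block Mt1 was at -0.82 (0.85) and Nr3c1 at 0.61 (0.878).

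The arrays lie on 4 slides scanned on 2 days, 13 arrays a day, and each slide holds stressed and naive arrays of both genotypes of 1 region. In TLR-DKO mPFC 2 stressed and 1 naive arrays were scanned on day 1 and 1 and 3 on day 2. These counts were 2 and 1, then 1 and 2 in WT NAc, and 2 and 1, then 2 and 2 in TLR-DKO NAc. In WT mPFC they were 2 and 2, then 1 and 1. Condition is thus partly aligned with scan day except in WT mPFC. With slide as a block the averaged stress difference was 1.73 ± 0.31 for Ddit4 and 1.09 ± 0.20 for Tsc22d3 (limma adjusted p = 0.0646 for each), and 1.13 ± 0.20 for Pik3r1 (0.0573). On scan day 1 alone it was 1.34 ± 0.25 for Ddit4, 1.10 ± 0.20 for Tsc22d3 and 1.20 ± 0.36 for Pik3r1. On scan day 2 alone it was 2.18 ± 0.43 for Ddit4, 1.15 ± 0.31 for Tsc22d3 and 1.06 ± 0.28 for Pik3r1. These 3 genes stood above naive on both days, on each of which some groups hold only 1 array. Fkbp5 was at 0.354 on day 1 and at 1.07 on day 2, Zbtb16 at 0.772 and 0.865, Mt1 at 0.518 and 0.663, Nr3c1 at -0.211 and -0.478 and Mt2 at 0.902 and -1.15 on the same days. In TLR-DKO mPFC the Tsc22d3 difference was 0.678 on day 1, with 1 naive array, and -0.359 on day 2, with 1 stressed array.

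**Figure D5:**
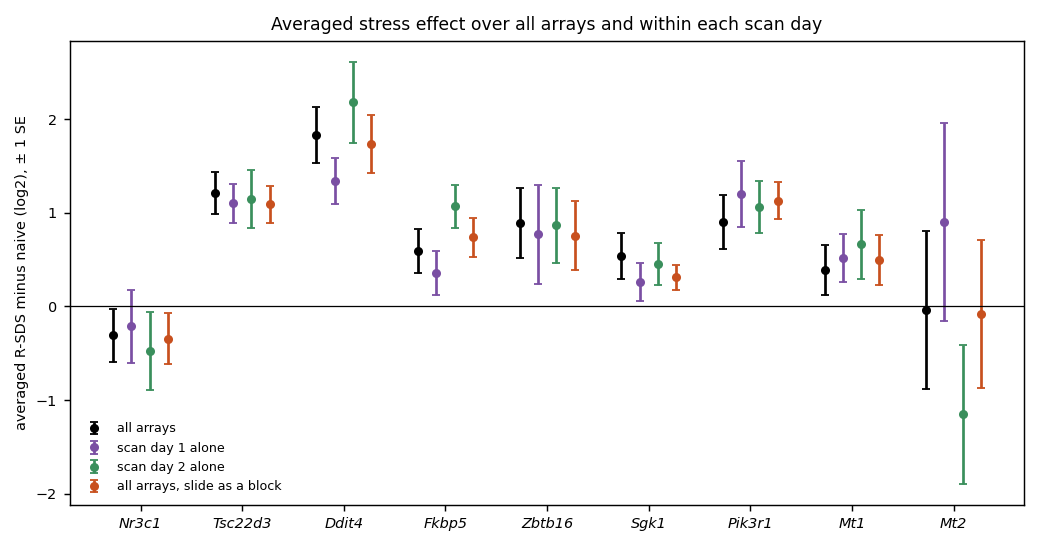
Averaged stress effect (R-SDS minus naive, log2, y axis) of the 9 genes (x axis) over all 26 arrays (black), on scan day 1 alone (purple), on scan day 2 alone (green) and over all arrays with slide as a block (orange), with bars of 1 standard error. Tsc22d3 stays between 1.09 and 1.21 in the 4 fits, while Ddit4 runs from 1.34 to 2.18 and Mt2 from -1.15 to 0.902.

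Over the 26 arrays Tsc22d3 and Ddit4 had a Pearson r of 0.88, and over the 8 group means 0.97. Among 14370 named genes, those most like Tsc22d3 over the arrays were B4galt1 (0.90), Ddit4 (0.88), Rbm47 (0.76), Zfp36l1 (0.73) and Glul (0.71), with Sgk1 (0.71) next. B4galt1 encodes a galactosyltransferase, Rbm47 and Zfp36l1 RNA-binding proteins, and Glul glutamine synthetase, itself known as a glucocorticoid-induced gene. Fkbp5 was most like Pik3r1 among these genes (0.67) and Ddit4 next (0.57). Those most like the receptor Nr3c1 were Zfp148 (0.76), Creb3l2 (0.74), Txndc12 (0.71), Sirt6 (0.71) and Ahdc1 (0.70). Its r with the 8 other genes tested ran from -0.44 for Mt1 to 0.02 for Zbtb16. All of these are descriptions over arrays that share slides, scan days and groups. WT mPFC R-SDS replicate 3 had the lowest Nr3c1 (-0.20) and the highest Mt1 (5.32), Fkbp5 (5.16) and Pik3r1 (2.59). It also had the highest Tsc22d3 (6.30) and Ddit4 (8.06), and the correlations without it are not given.

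Other genes of the pathway were taken from lists. In the averaged stress difference 0 genes of any list passed. The median of all genes was 0.04, and 55.8% of all genes were above 0. Of 26 other glucocorticoid response genes 21 were tested, 14 with a difference above 0 and 7 below, with a median of 0.15. The smallest p belonged to the phosphatase gene Dusp1 at 0.80 ± 0.27, the hypoxia-related factor Hif3a at 0.71 ± 0.25 and the clock gene Per1 at 0.85 ± 0.36. Their median was 0.01 in TLR-DKO NAc, 0.26 in WT NAc, 0.02 in TLR-DKO mPFC and 0.43 in WT mPFC, beside -0.02, 0.06, -0.05 and 0.17 over all genes. Without the arrays that stand apart it was 0.09 in TLR-DKO mPFC and 0.29 in WT mPFC, beside 0.03 over all genes in WT mPFC. Of the 19 receptor chaperones, cofactors and steroid enzymes 13 were above 0 (median 0.10), among them Hsd11b2, which inactivates corticosterone, at 0.83 ± 0.32, the co-repressor Ncor1 at 0.63 ± 0.30 and the co-chaperone Fkbp4 at 1.03 ± 0.51. The Hsd11b2 probe was dim, with group means between -4.54 (naive TLR-DKO NAc) and -3.06 (stressed WT mPFC), which limits what its difference can show. Of 8 tested genes of the metal and oxidant response 6 were above 0 (median 0.23), with the sulfiredoxin gene Srxn1 at 1.98 ± 0.88, heme oxygenase 1 (Hmox1) at 0.47 ± 0.25 and the third metallothionein gene Mt3 at 0.34 ± 0.27. Of 22 genes of PI3K, Akt and mTORC1 signalling 9 were above 0 and 13 below (median -0.05), with the mTORC2 subunit Rictor at 1.25 ± 0.52, the catalytic subunit Pik3cb at 0.91 ± 0.47 and Sesn2, another inhibitor of mTORC1, at 0.70 ± 0.40. Of the closest relatives of the 10 genes 6 were tested and all 6 were above 0 (median 0.23). Tsc22d2 had the smallest p, at 0.81 ± 0.27. Without the arrays that stand apart 4 of 6 relatives were above 0 (median 0.17). The medians of the chaperone, metal response and PI3K lists were then 0.06, 0.15 and -0.09.

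Genes that respond to handling and tissue dissociation were also measured. Of 15 tested, 14 had an averaged stress difference above 0, with a median of 0.54, and the smallest p belonged to the transcription factors Klf4 at 1.55 ± 0.41 and Fos at 0.93 ± 0.30 and to Btg2 at 0.85 ± 0.23 (limma adjusted p from 0.542 to 0.778). Of all genes 55.8% had an averaged difference above 0. The median of the handling genes was 0.01 in TLR-DKO NAc, 0.73 in WT NAc, 0.28 in TLR-DKO mPFC and 1.11 in WT mPFC. Without the arrays that stand apart it was -0.31 in TLR-DKO mPFC and 1.08 in WT mPFC. Of the astrocyte markers 6 of 8 tested were above 0 (median 0.33), and Ntsr2 was at background in 5 of 8 groups. Their summed level in WT NAc was 16.5 to 37.9 in stressed and 11.7 to 14.9 in naive microglia, which do not overlap. In WT NAc 8 of 8 were above 0 (median 0.41, beside 0.06 over all genes), as were 54.8% of all genes. The sum was 19.8 to 20.3 in stressed and 16.2 to 22.5 in naive TLR-DKO NAc microglia, which overlap. In the mPFC groups it was 16.5 to 75.1. The 75.1 is that of WT mPFC R-SDS replicate 3, and the other WT mPFC R-SDS arrays stood at 18.9 and 26.4, within the range of the naive ones (16.5 to 35.5). All 4 neuron markers tested of 10 were above 0 (median 0.42), with a summed level of 46.8 to 114 in stressed and 28.3 to 96.3 in naive WT mPFC microglia, where the 114 is again replicate 3. It was 28.3 to 40.7 in stressed and 31.2 to 42.8 in naive TLR-DKO NAc microglia, 42.2 to 51.5 in stressed and 31.9 to 58.7 in naive WT NAc microglia, and 29.9 to 75.1 in stressed and 29.0 to 58.1 in naive TLR-DKO mPFC microglia, so the groups overlap in each. The perivascular macrophage markers lie inside the Cx3cr1 gate. Their summed level in TLR-DKO mPFC was 7.53 to 12.2 in stressed and 17.6 to 58.7 in naive microglia. In WT mPFC it was 11.7 to 53.2 in stressed and 6.24 to 15.2 in naive microglia, which overlap through R-SDS replicate 3 (11.7). The directions are those of Zbtb16 in the mPFC. Among the stressed WT mPFC arrays replicate 1 had the highest sum (53.2) and the lowest Zbtb16 (-1.97). In TLR-DKO NAc the sum was 0.164 to 8.65 in stressed and 0.22 to 6.28 in naive microglia. In WT NAc it was 1.58 to 6.62 and 0.168 to 3.67, so the NAc groups overlap. Of the microglia markers 2 of 10 were above 0 (median -0.07), of the oligodendrocyte markers 4 of 8 tested (0.02), of the endothelial and mural markers 4 of 5 (0.12), of the monocyte and neutrophil markers 1 of 3 (-0.19), of the T, NK and B cell markers 3 of 4 (0.10) and of the perivascular macrophage markers 4 of 7 (0.34). Without the arrays that stand apart, 1 of 10 microglia markers (-0.17) and 3 of 8 oligodendrocyte markers (-0.09) were above 0. The others, in that order, were then at 3 of 5 (0.01), 1 of 3 (-0.21), 2 of 4 (0.02) and 7 of 7 (0.44). The part of these cells and of handling in the differences above was not tested.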

How the data were processed

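Gene expression was measured on 26 single-colour Agilent arrays of amplified RNA from pooled, sorted cells. The scanner output that was deposited gives each spot's intensity on a linear scale, and its processed signal has the background subtracted. Agilent Feature Extraction, version 11.0.1.1, wrote it, per the file headers and the submitters' processing notes. The authors also deposited a matrix of log2 values whose scale and centring are not stated. Each of its columns correlated with that array's scanner values at r = 1 (Pearson), the column medians lay between -2.90 and -2.21, and it served as an alternative.

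From the scanner files, log2 of the processed signal minus log2 of the array's 75th percentile was computed without control and outlier spots (0 spots were saturated), and spots of a probe were averaged. Of 55681 probes, 28026 got a gene name by matching their accession to RefSeq (assembly GRCm38.p6). The file headers name build mm9, so coordinates are given only for the RefSeq promoter windows. Probes entered the test if 3 or more arrays of any group had them well above background, and a gene was represented by its brightest one. All arrays were fitted as 8 group means with limma 3.58.1 in R 4.3.3 (lmFit and eBayes, two-sided, Benjamini-Hochberg), and the procedure was tested on simulated data. The median SD within a group was 0.61 on the log2 scale, and the number of arrays limits the precision.

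The genes, the lists and the averaged stress contrast were chosen with earlier results of these data known. Named genes are the 10 genes and, per list, the 3 with the smallest p in the averaged stress contrast where none passed. The labels do not say which samples share mice, so p-values measure the spread between these pools. Samples with the same replicate number deviated together only slightly and are not treated as pairs. Arrays of the same slide also deviated together slightly. The main fit has no term for slide, which is among the alternatives. Alternatives covered background correction, scaling of arrays, dim probes kept or dropped, several probes for a gene, array weights, how the variance is estimated, slide, scan day, the replicate number, the samples in the fit and each array left out.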

Additional observations from a re-analysis of the deposited data

Results flagged for a closer look

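The Klf9 probe stood at -0.29 on TLR-DKO mPFC naive replicate 3, the highest of its group and far from the other 3 arrays (gap over range 0.942), on which it was not well above background. It was the only such value among 24 combinations of a probe and a group of 4 arrays examined, of which chance flags about 1 in 20.

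The stress effect on Zbtb16 in the mPFC differed in direction between genotypes by -2.51 (TLR-DKO minus WT). Every R-SDS array lies below every naive array in TLR-DKO, and every R-SDS array lies above every naive array in WT. The limma test of this difference gave an adjusted p of 0.812.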

How the results depend on the processing

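The 90 values (9 genes in 10 comparisons) and the counts of genes past the threshold were recomputed under 23 other settings and with each of the 26 arrays left out, and a sign was compared only where the value exceeded 1 standard error. In the averaged stress difference, where 0 of 9 genes passed, 1 passed with normexp on the median signal and quantile normalization (Ddit4, 1.76, limma adjusted p = 0.0247), with median centring (Ddit4, 1.74, 0.0480), with a trended and robust variance (Ddit4, 1.83, 0.0400) and without the 2 arrays that stand apart (Ddit4, 1.77, 0.0236), and 2 passed with array weights (Ddit4 at 1.80, 0.0144, and Tsc22d3 at 1.29, 0.0236). Of all genes 0.0121% passed with normexp, 0.0162% with each of the other 3 of the first 4 settings and 0.0404% with array weights. Leaving out 1 array gave 0 to 2 genes. Ddit4 passed without WT mPFC R-SDS replicate 1 (0.0336), TLR-DKO mPFC naive replicate 1 (0.0398), TLR-DKO mPFC R-SDS replicate 3 (0.0437) or TLR-DKO NAc R-SDS replicate 4 (0.0391), and Tsc22d3 without TLR-DKO mPFC R-SDS replicate 3 (0.0200) or TLR-DKO NAc R-SDS replicate 4 (0.0430), and 0.0% to 0.0243% of all genes passed with 1 array left out. In WT mPFC, 1 gene, Pik3r1, passed with slide as a block and array weights. In the other 8 comparisons 0 of 9 passed under every setting that could be run. Signs turned for Mt1 in TLR-DKO NAc (0.279 for the mean of its probes, 0.0349 on slide 4, which is that region's scan day 2), for Tsc22d3 in TLR-DKO mPFC (-0.359 on slide 2, scan day 2), for Zbtb16 in WT NAc (-0.136 on slide 3, scan day 1) and for Fkbp5 in the genotype comparison (-0.378 on scan day 2). A slide or day alone has fewer arrays, and the cause was not tested. The planned normexp fit on the mean signal was not run, and the median signal replaced it. That setting, each scan day alone, each probe on its own and slide with array weights were chosen after seeing the data.

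With the replicate number as a block 0 of 9 genes passed in each of the 10 comparisons, and the averaged difference was 1.96 for Ddit4 and 1.29 for Tsc22d3. Same-numbered arrays had a median correlation of deviations of 0.06 (9 of 36 pairs over 0.1), and differently numbered ones -0.03 (12 of 90). Arrays of the same slide had a median of 0.08 (21 of 61), and those of different slides -0.07 (0 of 65). The labels do not say that the numbers pair the samples, and they were not treated so.

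Over all genes, region counts changed by more than 1.5 times, with 224 genes in the main fit, 71 with the trended and robust variance, 74 with normexp and 452 with array weights or scan day as a block. Stress in WT mPFC gave 2 genes, or 72 with slide as a block and array weights. Dim probes such as Zbtb16 and Klf9 lie near background, which limits what their values can show.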

Other observations

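The same 2 stressed TLR-DKO arrays were the lowest of their groups for 3 of the target genes. TLR-DKO NAc R-SDS replicate 4 stood at 4.73 for Tsc22d3, 5.71 for Ddit4 and 3.76 for Sgk1. TLR-DKO mPFC R-SDS replicate 3 stood at 4.16, 5.67 and 3.43 for the same genes. For Pik3r1 neither was the lowest, at 1.62 on the NAc array and 2.01 on the mPFC array, which is the highest of its group. Neither was the lowest for Fkbp5, Mt1 or Mt2. For Zbtb16 the NAc array was the lowest of its group (-3.36) and the mPFC array the highest (-2.72). Both arrays were scanned on day 2. Over all arrays Tsc22d3 had a Pearson r of 0.88 with Ddit4 and 0.71 with Sgk1. The pattern was noticed in the data, its share among all genes was not counted, and no sample was grouped by it.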
